A study of Homo sapiens with 7 samples.

Results

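Genomic regions enriched for HOXB13 acetylated at lysine 13 were examined in C4-2B, a prostate cancer cell line derived from LNCaP that grows without androgen. They were regions called in 2 HOXB13-K13ac libraries and, in 1 of these libraries, also called against a non-specific antibody. Overlapping peaks of replicate 1 and replicate 2 were merged into 53083 regions, of which 26763 held a peak of each library. Of these 26763, 6264 (23.4%) also shared at least 1 bp with a peak of replicate 2 called against IgG, and these 6264 are described here. They were chosen by presence in 3 peak lists: replicate 1, replicate 2 against input chromatin, and replicate 2 against IgG. The other 20499 regions of both libraries, without a peak in the IgG list, serve as the comparison. For brevity the 6264 are called IgG-supported regions, which says only that a peak call was made and not how strong it was.

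All 7 libraries came from C4-2B cells grown with charcoal-stripped FBS, a serum whose steroid hormones have been largely removed, and the labels name no other treatment and no genotype. The libraries are 3 HOXB13-K13ac precipitations, 2 IgG precipitations and 2 inputs, made from formaldehyde-fixed, sonicated chromatin. The title of replicate 1 begins with the number 2898, and the titles of replicates 2 and 3 begin with 3047. These numbers are called library series here, and what they stand for is not given. The labels name no separate cultures, and all of them describe a single cell line, so the lists speak for C4-2B in this medium only. Which control served for replicate 1 is not named, and neither is the IgG library behind the IgG list. The files hold peaks without read counts, so the depth of every library is unknown.

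HOXB13 is a homeodomain transcription factor that marks the prostate lineage and binds regulatory DNA there, often together with the androgen receptor and FOXA1. Lysine acetylation of a transcription factor can change its partners, and the study's title places acetylated HOXB13 at a super-enhancer network of tyrosine kinases. In a ChIP-seq experiment, input shows how much DNA each stretch of chromatin yields without precipitation. An IgG control shows in addition what sticks to beads and to a non-specific antibody, and the list called with it uses this background in place of input. A call against IgG is therefore a different criterion from a call against input.

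The IgG-supported regions were by median more strongly enriched and broader than the other regions of both libraries, though the ranges overlapped. This follows in part from the rule, because the lists that chose the regions also supply these values, so they are given as a description without a test. The authors' fold enrichment, as MACS2 defines it, is the height of a peak's summit relative to the local background of its control, and where a region held several peaks of a list the highest value was taken. In replicate 2 against input the fold ran from 4.07 to 89.5 with a median of 18.6 (interquartile range 14.6 to 25.1), compared with a median of 7.91 (5.86 to 10.9) in the other regions. In replicate 1 it ran from 1.77 to 40.2 with a median of 9.87 (7.39 to 13.1), compared with 5.01 (3.76 to 7.24). The replicate 2 value was the higher of these folds at 6036 of the 6264 regions (96.4%) and the replicate 1 value at 228. Folds over different controls are not on a shared scale, so this does not compare the amount of bound protein.

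The same regions had far lower replicate 2 folds over IgG than over input. Folds over these controls are not on a shared scale, so the gap alone does not measure how far the regions stand out. Their fold over IgG ran from 2.01 to 11.6 with a median of 3.18 (2.70 to 3.90), and at none of the 6264 was it higher than the fold over input. The ratio of the input-based fold to the IgG-based fold had a median of 5.87 (5.10 to 6.61). Most of these IgG calls were weak. Only 1501 of the 6264 regions (24.0%) had a q of 0.05 or less against IgG, a q being a p-value adjusted by the peak caller for many peaks. At 2120 regions (33.8%) the −log10 q was 0, and at 201 it was at least 5. Against input, by contrast, the lowest −log10 q among these regions was 10.4 in replicate 2, with a median of 41.9.

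Both folds of replicate 2 ranked the regions alike, with Spearman's rho of 0.85 over the 6264 regions. They share the same precipitated library, so a high rho is built in. Their summits coincided for the same reason, lying within 10 bp of each other at 5461 regions (87.2%). Between separate libraries the ranking was looser. The fold in replicate 1 followed that of replicate 2 with a rho of 0.56, close to the 0.58 of the other regions. Regions are not independent replicates, and no p-value is attached to these correlations.

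**Figure D1:**
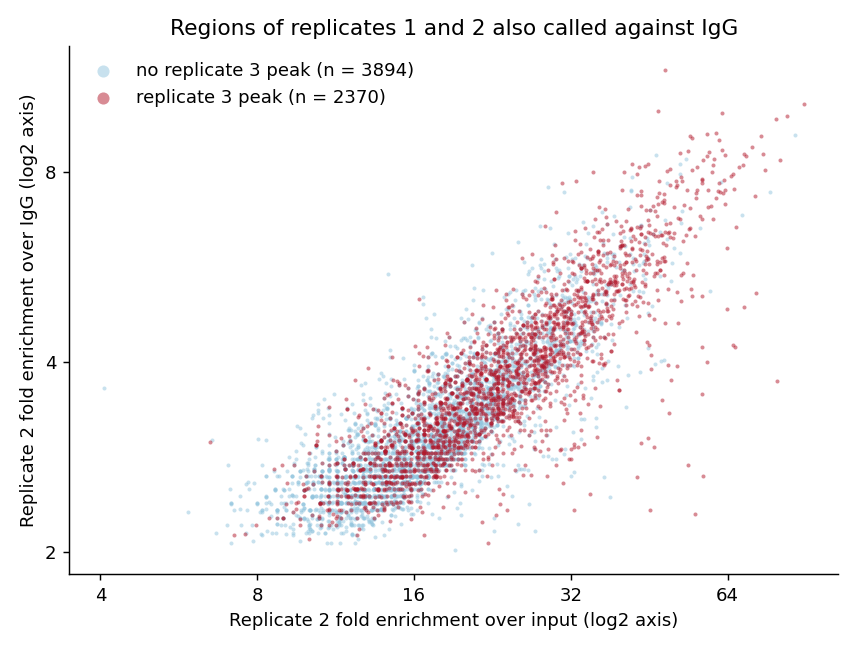
Each point is an IgG-supported region, with the replicate 2 fold enrichment over input on the horizontal axis and over IgG on the vertical axis, both on log2 axes. The folds run from 4.07 to 89.5 over input and from 2.01 to 11.6 over IgG and rise together, though these extremes belong to different regions. The 2370 regions with a replicate 3 peak (red) are denser towards the upper right than the 3894 without one (blue).

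In width the regions ran from 425 bp to 17177 bp, with a median of 1616 bp (interquartile range 1127 to 2215), compared with 891 bp (643 to 1281) in the other regions. Those wider than 2 kb numbered 1998 (31.9%), compared with 1306 (6.37%) of the other regions. Together the IgG-supported regions covered 11.5 Mb, 35.1% of the length of all regions of both libraries. Most were simple: 5760 (91.95%) held a single replicate 2 peak, 4506 (71.9%) a single replicate 1 peak and 5211 (83.2%) a single IgG-list peak. At the other end, 144 held 3 or more IgG-list peaks and 1 held 9. The strongest summits of replicates 1 and 2 lay a median of 68 bp apart (30 to 158), compared with 85 bp (37 to 191) in the other regions. They lay within 100 bp of each other at 4016 of the 6264 (64.1%) and at 56.0% of the other regions.

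**Figure D2:**
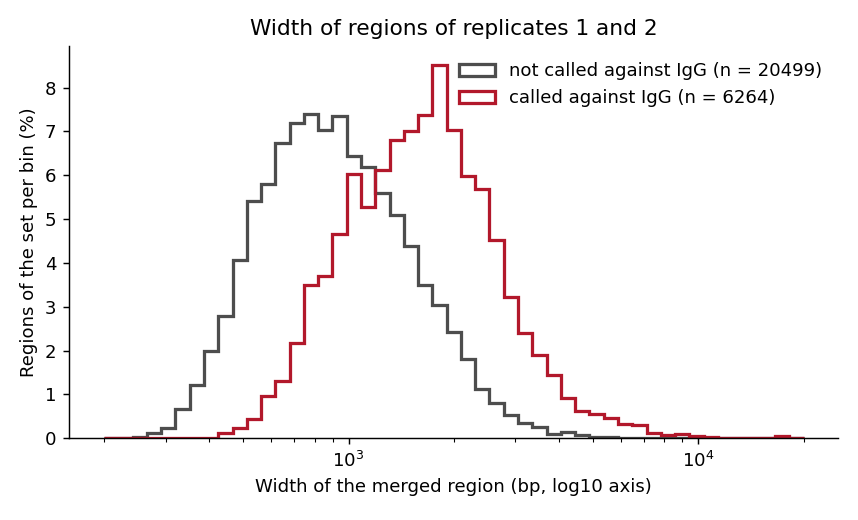
Width of merged regions on a log10 axis, as the percentage of each set per bin, for the 6264 IgG-supported regions (red) and the 20499 other regions of both libraries (grey). The red curve lies to the right, with a median of 1616 bp against 891 bp, and the curves overlap broadly.

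The share of regions of both libraries called against IgG rose with the replicate 2 fold. The call and this fold come from the same precipitated library, so a rise is in part built in and is given as a description. In the 20 equal parts of the 26763 regions ordered by that fold, 0 to 0.896% were called in the lowest 7 parts, where the fold was at most 7.48. The share reached 12.6% at folds of 10.3 to 11.0, 51.4% at 14.9 to 16.7 and 88.1% in the highest part, at folds of 27.9 and above. All of the 100 regions with the highest replicate 2 fold were called, and 893 of the highest 1000 (89.3%). Ranked by replicate 1 fold instead, 80 of the highest 100 and 726 of the highest 1000 (72.6%) were called. The 5 regions with the highest replicate 2 fold and no IgG-list peak, picked after their values were seen, had folds of 46.8 to 49.8. The first, on chromosome 5 from 151149898 to 151151088, had a fold of 49.8 in replicate 2 and 14.2 in replicate 1. Its nearest IgG-list peak was 200 kb away, and it had no replicate 3 peak. The other 4, on chromosomes 2, 7, 15 and 16, all had a replicate 3 peak, with folds of 5.77 to 8.64. Strong enrichment over input could thus occur without a call over IgG.

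The required overlap of 1 bp was never a close decision. All 7498 IgG-list peaks that met one of the regions lay wholly inside it, and the least sequence shared was 235 bp, the length of the shortest peak in that list, at 56 regions. Just outside the rule, the nearest region without a call lay 98 bp from an IgG-list peak, on chromosome 1 from 28156466 to 28157253, with folds of 8.13 in replicate 1 and 11.4 in replicate 2. The next 4 lay 100 to 117 bp away, and their replicate 2 folds were 12.3 to 22.9. Just inside it, 5 of the 56 regions that shared 235 bp had replicate 2 folds of 8.16 to 11.4 and folds over IgG of 2.24 to 2.33, all with a −log10 q of 0. Nearly the whole IgG list was used: 8 of its 7506 peaks lay outside the regions described, at 7 regions of replicate 2 alone and 1 of replicate 1 alone.

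The list of replicate 3 against input took no part in the choice of regions. It holds 18232 peaks from another precipitation of library series 3047. The input listed with that series is numbered as replicate 2, so the lists of replicates 2 and 3 may share an input. Which input served is not named. Of the 6264 IgG-supported regions, 2370 held a replicate 3 peak (37.8%, exact 95% binomial interval 36.6 to 39.0), compared with 2224 of the other 20499 (10.8%, 10.4 to 11.3). Over all regions of both libraries the share was 17.2%. The difference was 27.0 percentage points (25.7 to 28.3). These intervals cover counting error only, and neighbouring regions share chromatin, so no test was made across regions.

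The difference was much smaller between regions of like enrichment in replicate 2. When the other regions were weighted so that they had the same spread over 20 parts of replicate 2 fold as the IgG-supported ones, their share with a replicate 3 peak was 36.1%. The difference was then 1.78 percentage points, with an interval of −0.46 to 4.02 that includes 0. With 5 parts in place of 20 it was 5.03 points (3.03 to 7.04). With 5 parts of replicate 2 fold combined with 5 of width it was 3.05 points (0.986 to 5.12), and with 5 of replicate 1 fold in place of width 3.29 points (1.303 to 5.27). Of these 4 weightings by replicate 2 fold, 3 had an interval that left out 0. These 3 used 5 parts of replicate 2 fold, which match the sets in fold less closely than 20 parts. Within the highest of the 5, the share called against IgG still rose from 61.5% at folds of 16.7 to 18.8 to 88.1% at 27.9 or more. Whether this accounts for the differences that remained was not tested. With 5 parts of width alone it was 19.2 points (17.8 to 20.7), and with 20 parts of replicate 1 fold alone 9.33 points (7.72 to 10.9). Except for those with 5 parts of replicate 2 fold alone or of width alone, these weightings were chosen after seeing the data. In the highest part, where folds were 27.9 or more, 65.8% of 1179 IgG-supported regions (63.0 to 68.5) and 57.5% of 160 others (49.5 to 65.3) held a replicate 3 peak. In the part before it the values were 48.1% of 979 and 50.3% of 358, and at folds of 16.7 to 18.8 they were 32.2% of 821 and 37.0% of 514. At folds of 11.0 to 12.2 the IgG-supported regions were ahead, with 20.4% of 289 (15.9 to 25.5) against 14.2% of 1101 (12.2 to 16.4). In the 12 parts with at least 20 IgG-supported regions, their share was the higher in 9 and the lower in 3, and the intervals of both sets overlapped in all 12.

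**Figure D3:**
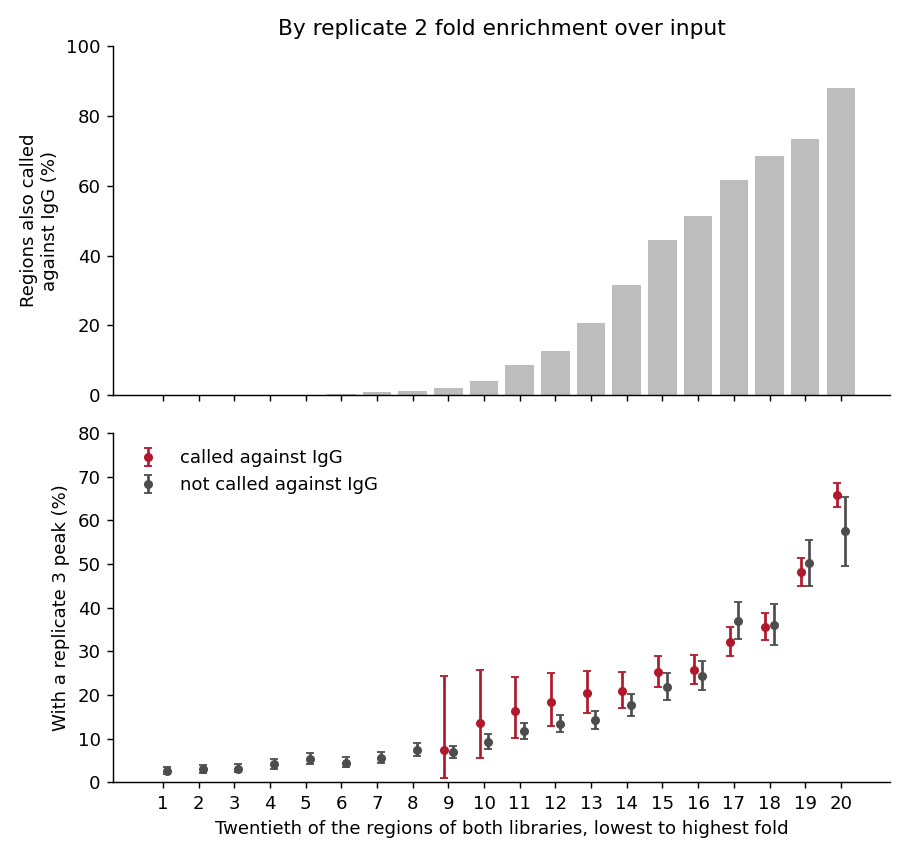
The 26763 regions of both libraries in 20 equal parts from the lowest to the highest replicate 2 fold over input: above, the percentage called against IgG, and below, the percentage with a replicate 3 peak for regions called (red) and not called (grey) against IgG, with exact 95% intervals and only for parts with at least 20 regions of a set. Both panels rise to the right, to 88.1% above and to 65.8% and 57.5% below, and red and grey intervals overlap in all 12 parts where both are drawn.

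Within the IgG-supported regions, the share with a replicate 3 peak rose with each of the folds of the lists that chose them. In 5 equal parts by fold over IgG, from lowest to highest, it was 20.97%, 26.2%, 35.2%, 45.2% and 62.3%. In 5 parts by replicate 1 fold it was 11.4%, 25.4%, 36.4%, 48.3% and 67.8%, a wider span. In 5 parts by replicate 2 fold over input it ran from 19.2% to 64.6%. Regions with a replicate 3 peak had a median fold of 12.3 in replicate 1 and 22.9 in replicate 2, compared with 8.66 and 17.1 in those without. They were also wider, with a median of 1851 bp compared with 1464 bp. In the 5 equal parts of all regions of both libraries by width, from narrowest to widest, 17.0%, 19.8%, 27.4%, 34.8% and 47.7% of the IgG-supported regions held a replicate 3 peak.

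Regions with a low q against IgG held a replicate 3 peak more often, and they were also the more enriched over input, with a median replicate 2 fold of 30.4 compared with 16.7. Of the 1501 regions with a q of 0.05 or less, 884 held a replicate 3 peak (58.9%, 56.4 to 61.4), and of the 4763 with a higher q 1486 did (31.2%, 29.9 to 32.5). In the highest of 5 parts by replicate 2 fold these shares were 65.6% of 969 (62.5 to 68.6) and 61.3% of 284 (55.3 to 67.0). In the next part they were 50.2% of 432 (45.4 to 55.1) and 44.3% of 815 (40.8 to 47.8). In the middle part the order was the other way, with 30.4% of 79 (20.5 to 41.8) and 32.4% of 1168 (29.8 to 35.2). In all 3 parts the intervals overlapped. The lowest parts held 2 and 19 regions with a low q.

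The share of replicate 3 peaks that lay in these regions fell from its strongest peaks to its weaker ones. Of the 100 replicate 3 peaks with the highest fold, 68 lay in IgG-supported regions and the other 32 in other regions of both libraries. Of the highest 1000 these shares were 58.5% and 31.1%, and of all 18232 peaks 15.98% and 13.3%. Where replicate 3 had a peak in an IgG-supported region, its fold was modest, from 2.47 to 18.0 with a median of 5.39 (4.50 to 6.55), compared with 4.88 (4.20 to 5.88) in the other regions. Its fold followed that of replicate 1 with a rho of 0.33 and that of replicate 2 with a rho of 0.27 over 2370 regions. The replicate 3 summit lay a median of 131 bp from that of replicate 2 (53 to 428), much as in the other regions (132 bp, 53 to 370). Replicate 3 has its own list against IgG, with 1 peak on chromosome Y, and none of the 6264 regions held it.

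A further list called against input carries the antibody's name but matches no single library, so it may repeat a library used here. Its 36205 peaks met 6263 of the 6264 IgG-supported regions (99.98%, 99.9 to 100), compared with 17036 of the others (83.1%, 82.6 to 83.6) and 87.1% of all regions of both libraries. Weighted over 20 parts of replicate 2 fold, the others reached 99.9%. In the IgG-supported regions its fold had a median of 13.9 (10.7 to 18.5) and followed that of replicate 2 with a rho of 0.93, compared with 0.59 for replicate 1 and 0.39 for replicate 3. The 1 region it missed lay on chromosome 11 from 77790168 to 77790922. This region also had the lowest replicate 2 fold of all 6264, 4.07, beside 7.97 in replicate 1, 3.64 over IgG and no replicate 3 peak. Its folds over input and IgG were nearly equal, with a ratio of 1.12, the lowest of the set.

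The 15 regions with the highest −log10 q against IgG lay on 10 chromosomes, 4 of them on chromosome 3. Their folds were 8.49 to 11.6 over IgG (median 9.14), 47.0 to 89.5 in replicate 2 over input (median 58.5) and 14.0 to 30.2 in replicate 1 (median 22.3). All 15 held a replicate 3 peak, with folds of 5.08 to 14.2. The last 2 were taken by their fold over IgG from 15 regions that shared a −log10 q of 9.305. With all of these, 28 regions reached that value, of which 27 held a replicate 3 peak, with folds of 2.70 to 14.2. The 15 named first lay in the highest of 20 parts by replicate 2 fold, at 27.9 or more. There 65.8% of IgG-supported regions and 57.5% of the others held a replicate 3 peak, beside 17.2% of all regions of both libraries. The widths of the 15 named first were 1776 to 5364 bp.

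The first lay on chromosome 10 from 32634875 to 32636727. It had the highest fold over IgG of the set, 11.6, with a −log10 q of 15.8. Its folds were 27.1 in replicate 1, 48.5 in replicate 2 over input and 12.8 in replicate 3. In it the ratio of input-based to IgG-based fold was 4.18, below the lower quartile of the set.

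The next 6 shared a −log10 q of 10.7. A region on chromosome 13 from 28192526 to 28196921 was 4396 bp wide and held 3 IgG-list peaks, with folds of 15.2 in replicate 1, 47.0 in replicate 2, 10.01 over IgG and 6.42 in replicate 3. On chromosome 6 from 42749408 to 42752172 the folds were 30.2, 58.5, 9.18 and 11.3 in the same order. On chromosome 19 from 58896650 to 58899478 they were 14.0, 74.1, 9.13 and 7.54. The replicate 1 fold thus spread from 14.0 to 30.2 at nearly the same fold over IgG. The other 3 were on chromosome 3 from 128368467 to 128370504, on chromosome 22 from 29662473 to 29665560 and on chromosome 12 from 57622583 to 57625942, with folds over IgG of 9.07, 8.99 and 8.64.

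The highest replicate 2 fold of the set, 89.5, belonged to a region ranked 8 by q, on chromosome 12 from 64797081 to 64799846. Its replicate 1 fold of 16.1 lay above the upper quartile of the set, 13.1, and well under the highest, 40.2. Its fold over IgG was 10.3 and its replicate 3 fold 14.2. A region on chromosome 5 from 137909854 to 137912471 ranked 3 by replicate 2 fold, with 83.3, with 22.96 in replicate 1, 9.81 over IgG and 5.13 in replicate 3. Between them in replicate 2 stood a region on chromosome 19 from 10763387 to 10764755, with a fold of 86.3 over input, 9.16 over IgG and 17.8 in replicate 1. It held no replicate 3 peak, the only one of the 5 highest in replicate 2 without one.

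**Figure D4:**
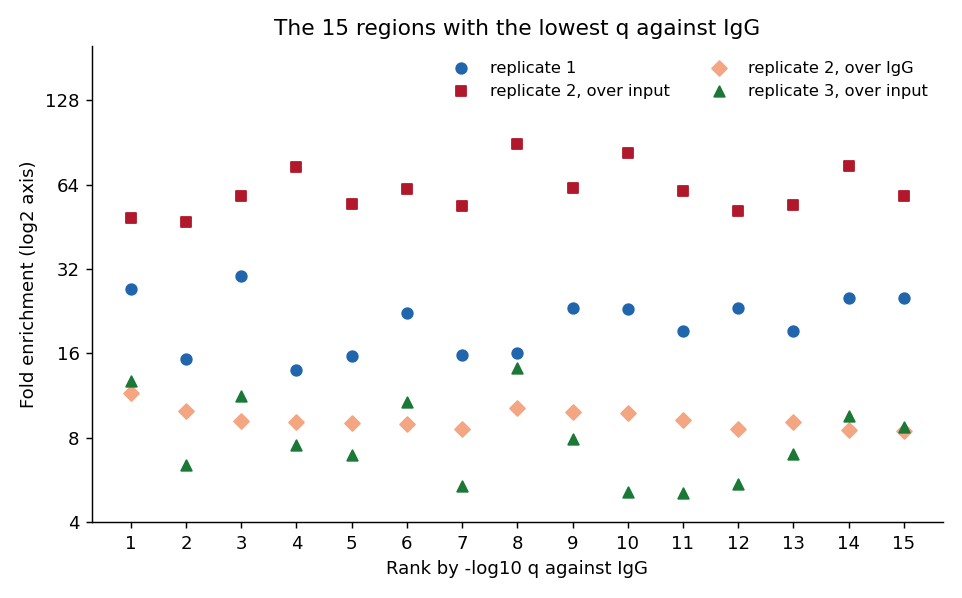
Fold enrichment on a log2 axis of the 15 IgG-supported regions with the highest −log10 q against IgG, in order of rank with ties by fold over IgG, in replicate 1, in replicate 2 over input and over IgG, and in replicate 3. The replicate 2 folds over input (47.0 to 89.5) lie above all others at every rank, the folds over IgG stay between 8.49 and 11.6, and the replicate 3 folds scatter from 5.08 to 14.2.

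The highest replicate 1 fold of the set was found on chromosome 19 from 1652587 to 1653603, in a region with a fold of 40.2 in replicate 1, 38.8 in replicate 2 and 5.13 over IgG. This region also had the highest replicate 3 fold of all IgG-supported regions, 18.0. The region second in replicate 3, on chromosome 11 from 74204302 to 74205246, had a replicate 3 fold of 15.8 beside a −log10 q of only 1.07 against IgG. On chromosome 7 the regions from 74071102 to 74072789 and from 2594387 to 2595674 had replicate 1 folds of 33.2 and 33.1, with 30.7 and 43.6 in replicate 2 and 7.68 and 7.06 over IgG. Of the 5 highest in replicate 1, the region on chromosome 6 from 42749408 was also among the 15 with the highest −log10 q against IgG, and that on chromosome 7 from 74071102 shared the 9.305 of the last of them.

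At a few regions the folds over input and over IgG went apart. The ratio between them was over 12 at 31 of the 6264 regions and under 3 at 15. The regions named at these ends were picked after their values were seen. On chromosome 6 a region from 28890146 to 28892566 had a replicate 2 fold of 55.3 over input and 2.30 over IgG, a ratio of 24.1. Another on chromosome 6, from 45344620 to 45346679, had folds of 57.3 and 2.64. A region on chromosome 5 from 179124115 to 179127217 had a fold of 79.7 over input, rank 5 in the set, and 3.73 over IgG, with a −log10 q of 1.15. All 3 held a replicate 3 peak, with folds of 4.40, 7.19 and 7.30, and had replicate 1 folds of 10.2, 9.31 and 23.3. At the low end, after the region on chromosome 11 described above, came regions on chromosome 6 from 33280730 to 33283198 and on chromosome 2 from 100630664 to 100631499. Their replicate 2 folds were 6.49 and 6.56 over input and 2.99 and 3.01 over IgG. Their replicate 1 folds were higher than those of replicate 2, at 8.30 and 8.08.

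The widest region ran over 17177 bp of chromosome 14, from 100026410 to 100043586. It held 5 peaks of replicate 1, 3 of replicate 2, 3 of the IgG list and 3 of replicate 3, with top folds of 16.9, 43.0, 5.10 and 5.40. A region of 16816 bp on chromosome 9, from 137246208 to 137263023, held 7 IgG-list peaks and a single replicate 2 peak. One of 16750 bp on chromosome 22, from 46450242 to 46466991, held 9 IgG-list peaks and 8 replicate 3 peaks, the most of any region in both lists. The IgG-list peaks filled 10462 bp of it. The 3 narrowest regions, of 425 to 446 bp, had replicate 2 folds of 13.9 to 16.4 and folds over IgG of 3.00 to 3.14. All 3 lay below the median of the set in both. Width and replicate 2 fold went together only loosely over the 6264 regions (rho 0.33).

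IgG-supported regions occurred on every chromosome except Y, where 1 region of both libraries was found. The share of the regions of both libraries that had a call against IgG was lowest on chromosome X, with 110 of 799 (13.8%, exact 95% interval 11.5 to 16.4). It was 15.7% on chromosome 2 (293 of 1870, 14.1 to 17.4) and 16.7% on chromosome 4 (171 of 1024, 14.5 to 19.1). It was highest on chromosome 17, with 402 of 1433 (28.1%, 25.7 to 30.5). The next were 27.5% on chromosome 22 (24.2 to 30.9) and 27.1% on chromosome 20 (23.9 to 30.4). Per megabase of the span between the first and last peak, chromosome 19 carried 6.73, chromosome 22 carried 5.82 and chromosome 17 carried 4.96, while chromosome X carried 0.709 and chromosome 4 0.896.

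Replicate 2 folds differed between chromosomes in the same direction, with a median over the regions of both libraries of 8.52 on chromosome X and 10.4 on chromosome 17. The share that each chromosome would have if its regions were called as often as all regions in the same of 20 parts of replicate 2 fold was therefore computed. It was 16.9% for chromosome X, 18.5% for chromosome 2, 18.9% for chromosome 4 and 28.5% for chromosome 17. On 3 of 24 chromosomes the interval of the observed share left this value out: X and 2, which were lower, and 3, which was higher (25.1%, 23.1 to 27.2, against 22.5%). The replicate 2 and IgG lists both took part in choosing the regions, so this is a description without a test. The intervals cover counting error only, and among 24 of them some can leave the value out by counting error alone. The share of IgG-supported regions with a replicate 3 peak was also lowest on chromosome X, at 22.7%, and ran up to 46.4% on chromosome 9.

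**Figure D5:**
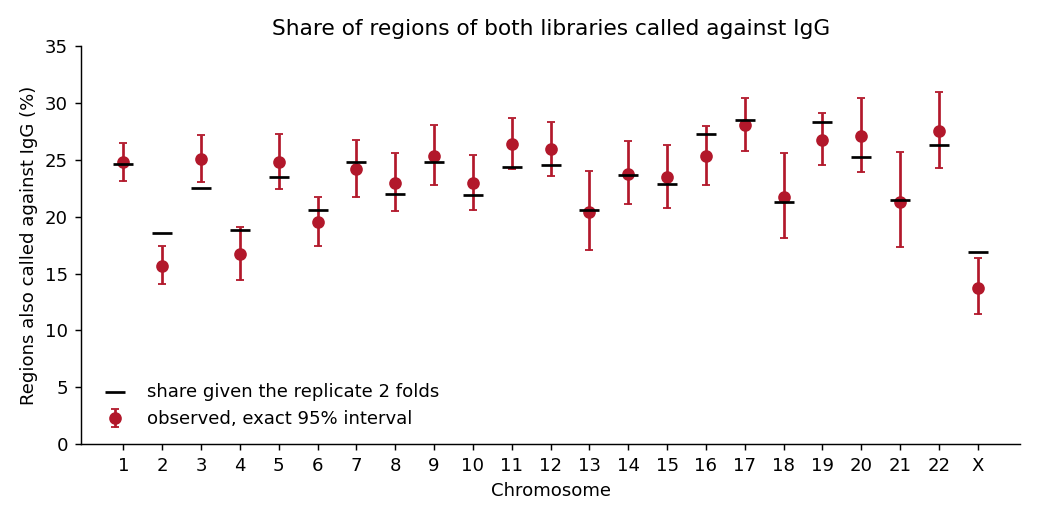
Percentage of the regions of both libraries that were called against IgG on each chromosome (red points with exact 95% intervals), with the share given their replicate 2 folds (black bars); chromosome Y, with 1 region and 0 calls, is not drawn. Observed shares run from 13.8% on X to 28.1% on 17, and the black bar lies outside the interval on chromosomes 2, 3 and X.

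Most IgG-supported regions had no other one within 10 kb. The nearest other one was a median of 49.1 kb away (interquartile range 9.63 to 144), while the nearest region of both libraries of either kind was 5.25 kb away (0.186 to 28.7). Among the other regions of both libraries, the nearest of the same set was a median of 8.75 kb away (0.285 to 42.9). That set is larger, and distances shrink with number, so these values do not compare how the sets cluster. When regions 10 kb apart or less were joined, 4677 of the 6264 (74.7%) stayed alone, 710 groups held at least 2 and 11 groups held at least 5. These 11 groups contained 61 regions (0.974%). With a distance of 20 kb, 28 groups held at least 5.

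The group with the most IgG-supported regions lay on chromosome 19 from 51338363 to 51378805. It held 8 of them in 40.4 kb, where 9 regions of both libraries lay in all. Their folds were 6.49 to 13.3 in replicate 1, 14.8 to 28.9 in replicate 2 and 2.77 to 4.70 over IgG. A q of 0.05 or less against IgG was reached by 3 of the 8, and 3 held a replicate 3 peak. The second group, on chromosome 20 from 32231670 to 32262242, held 7, all of the regions of both libraries in its 30.6 kb. The folds there were 14.9 to 26.6 in replicate 2 and 2.38 to 4.78 over IgG, with 3 replicate 3 peaks. Neither group held a region near the top of the set by fold.

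On chromosome 12 a group of 6 lay from 81774409 to 81798429, with replicate 2 folds of 12.3 to 33.4 and 1 replicate 3 peak. A compact group of 5 on chromosome 19, from 56145851 to 56167729, had the highest median replicate 2 fold of the 11 groups. Its replicate 2 folds were 16.7 to 49.6 with a median of 35.1, its folds over IgG were 3.25 to 6.65, and all 5 held a replicate 3 peak. Groups of 5 are ordered here by their highest fold over IgG. The next, on chromosome 7 from 89826353 to 89859516, was uneven. Its 5 regions had replicate 2 folds of 10.1 to 63.8 and replicate 1 folds of 2.65 to 27.9, and 1 held a replicate 3 peak. The remaining groups of 5, not named here, had median replicate 2 folds of 14.1 to 22.8.

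The most isolated region, on chromosome 13 from 60738163 to 60739014, had no other IgG-supported region within 7402 kb. Its folds were 11.2 in replicate 1, 25.9 in replicate 2 and 3.48 over IgG, with no replicate 3 peak. The next, on chromosome 12 from 39835874 to 39838097 and on chromosome 2 from 143631393 to 143632079, were 6282 kb and 4969 kb from another. Their replicate 2 folds of 17.7 and 14.7 lay within the interquartile range of the set.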

How the data were processed

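Each HOXB13-K13ac library was described by 1 or more peak lists deposited by the authors in narrowPeak layout. CASAVA 1.4, the aligners BWA and Bowtie2, the peak caller MACS2 and the builds hg19 and GRCh37 are named, per the submitters' processing notes. What each step did and its thresholds were not given in the sources used here. The deposited values are a fold enrichment (a ratio to the control) and a −log10 p and −log10 q per peak, taken as the authors' peak caller gave them. Lists were tied to libraries by the spelling in the labels, and the names behind replicates 1 and 3 differ only by a joining character. If these names were exchanged, the replicate numbers here would change and the values would not. The rule, the regions and the comparisons were chosen with earlier results of these data known.

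Peaks were merged and counted with Python 3.11.15, NumPy 2.4.6, pandas 2.3.3, SciPy 1.17.1 and Matplotlib 3.10.9, with 1 bp of overlap and no cut on fold, p or q. Of 762 simulated regions of the kind described, 762 were found, and all 3 counts compared with bedtools 2.31.1 were equal. Shares have exact binomial intervals at 95%, and the intervals of weighted differences use a normal approximation. Regions were named by rank: the strongest over IgG, the highest in each list and over the lowest of 3 folds, the widest, narrowest, weakest and most isolated, those at the edge of the rule and the largest groups. The ranking by the lowest of 3 folds gave the same 5 regions as that by fold over IgG. A ranking of regions with a higher fold over IgG than over input was empty. Alternatives changed the q of the peaks, the overlap, the summit distance, the libraries required, the chromosomes and the distance within groups. Coordinates are hg19, counted from 1. Without an hg19 genome and annotation in use here, genes, motifs and sequences of the regions were not analysed here.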

Additional observations from a re-analysis of the deposited data

How the results depend on the processing

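The number of IgG-supported regions stayed between 4284 (summits of replicates 1 and 2 within 100 bp) and 6337 (without replicate 1, counting peaks of replicate 2 alone), except that it was 1501 when IgG-list peaks needed a q of 0.05 or less. Their share with a replicate 3 peak, 37.8%, was then 58.9%. It was 36.6% with replicate 3 peaks of a q of 0.05 or less and 18.0% when a replicate 3 summit had to lie within 100 bp of a replicate 2 summit. Without replicate 1 it was 37.1%, beside 6.12% for the other peaks. The share in the list tied to no library was then still 99.98%, but that of the others was 59.4% in place of 83.1%, so the difference was 40.6 in place of 16.9 percentage points. In the remaining settings the share of IgG-supported regions with a replicate 3 peak lay within the interval of its main value. The difference from the other regions was less steady. With a stricter q cut on replicates 1 and 2 it was 24.7 in place of 27.0 percentage points for replicate 3. For the list tied to no library it was then 7.44 in place of 16.9 points. The alternative overlap rules left both differences unchanged. The difference from the other regions kept its sign in every setting. For replicate 3 it ran from 1.78 (with an interval that includes 0) to 44.2 percentage points. For the list tied to no library it ran from 0.0728 to 40.6 percentage points. No paired analysis was possible because the results come from no test between groups, and the IgG and input libraries enter only as controls of the lists. Leaving out replicate 2 could not be run, since the IgG list comes from that library. The depth of the libraries is unknown, so a missing peak cannot be told apart from too few reads. The settings on starts, exons and motifs were not run because no hg19 annotation or genome was used here.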
